A study of Mus musculus with 3 samples.

Results

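DNA methylation was compared between mouse colon organoids with an activated Braf V600E oncogene that had been selected to grow in Base medium, which leaves out the stem-cell niche factors, and the same kind of organoids in full medium. The comparison takes 2 of the 3 libraries of the study, identified by their labels: 1 of Braf organoids in Base medium and 1 of Braf organoids in full medium. The third library, the empty-vector control (EV), is given beside them. The organoids were grown from crypts of the first 2.5 cm of the proximal colon of male mice aged about 40 days that carry 1 Cre-activable Braf V600E allele (Braf+/LSL). Lentiviral Cre switches the allele on, and EV organoids received the lentiviral backbone alone. The labels give all 3 cultures 5 months and then 3 weeks in the named medium. Full medium supplied Wnt3a, R-Spondin and Noggin as conditioned media, with EGF and B27 added; the labels do not list what Base medium retained.

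All library titles carry the same culture name, BRAF3, and nothing in them gives a separate animal or a second culture per condition. There was 1 library a side, so differences are described by size and no p-value is given. Culture, library and medium cannot be told apart, and selection of a few surviving organoids cannot be told apart from a change within cells. Coverage does not show whether the Braf allele was switched on, and methylation at a marker gene does not measure its expression, so the colon epithelial identity of the cells was not checked by it.

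In mammals, methyl groups sit mostly on the cytosine of CpG dinucleotides. CpG-dense promoters, the CpG islands, are usually free of methylation, and dense methylation there goes with a silent gene. In colon crypts, Wnt and R-spondin signals maintain stem cells, Noggin holds back BMP signals that favour differentiation, and EGF drives proliferation. MBD-seq captures methylated DNA fragments with a methyl-CpG-binding protein and counts them, so it reads how much CpG-methylated DNA a region yields, not the share of methylated copies.

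The promoters below are examples picked by hand among the named genes, and they do not stand for all called ends. Each is the 250 bases before the RefSeq start of a gene (build GRCm38.p6, given 5′ to 3′ on the gene's strand), with every CpG in capitals. Sdk1 (chr5:141241284-141241533, forward strand), Slit3 (chr11:35121206-35121455, forward strand) and Slc5a8 (chr10:88885742-88885991, forward strand) had more coverage in Base medium. Ror2 (chr13:53286125-53286374, reverse strand) and Cfap300 (chr9:8042876-8043125, reverse strand) had less.
Sdk1: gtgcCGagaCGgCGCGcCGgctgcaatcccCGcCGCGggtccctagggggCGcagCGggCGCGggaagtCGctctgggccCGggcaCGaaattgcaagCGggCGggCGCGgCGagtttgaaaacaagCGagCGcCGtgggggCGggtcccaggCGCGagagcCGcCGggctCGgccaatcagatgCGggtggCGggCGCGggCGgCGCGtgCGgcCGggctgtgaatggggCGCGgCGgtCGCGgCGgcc
Slit3: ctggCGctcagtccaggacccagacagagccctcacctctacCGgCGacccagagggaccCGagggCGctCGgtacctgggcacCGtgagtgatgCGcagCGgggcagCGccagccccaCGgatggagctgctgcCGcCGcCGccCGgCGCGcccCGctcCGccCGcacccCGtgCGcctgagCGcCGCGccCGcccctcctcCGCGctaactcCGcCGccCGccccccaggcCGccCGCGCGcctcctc
Slc5a8: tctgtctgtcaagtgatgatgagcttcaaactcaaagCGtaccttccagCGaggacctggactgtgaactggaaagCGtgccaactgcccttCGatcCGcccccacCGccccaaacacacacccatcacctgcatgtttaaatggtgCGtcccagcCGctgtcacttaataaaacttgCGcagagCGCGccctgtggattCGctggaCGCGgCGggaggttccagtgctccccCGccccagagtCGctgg
Ror2: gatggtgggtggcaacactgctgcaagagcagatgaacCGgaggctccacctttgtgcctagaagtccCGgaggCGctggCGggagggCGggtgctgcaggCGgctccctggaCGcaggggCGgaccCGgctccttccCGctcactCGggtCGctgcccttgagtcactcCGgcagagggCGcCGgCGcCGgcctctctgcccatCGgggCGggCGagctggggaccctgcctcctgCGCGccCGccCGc
Cfap300: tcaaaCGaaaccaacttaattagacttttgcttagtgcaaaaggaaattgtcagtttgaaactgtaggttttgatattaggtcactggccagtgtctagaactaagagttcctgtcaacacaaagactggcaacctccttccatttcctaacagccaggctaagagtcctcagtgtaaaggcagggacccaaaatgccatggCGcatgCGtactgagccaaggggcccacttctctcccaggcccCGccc

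These stretches held 44 CpG at Sdk1, 35 at Slit3, 17 at Slc5a8, 24 at Ror2 and 4 at Cfap300. Over the 20085 RefSeq starts the median was 10, and 37.8% had 15 or more. The Cfap300 promoter was thus CpG-poor, while that of Ror2 was as CpG-dense as those of several genes that gained coverage. That of Gas1, not printed here, held 10 CpG, and the Gas1 start gained coverage.

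The full-medium library stood apart from the other two in its background, and every difference below rests on it; with 1 library a side the comparison cannot be made without it. No read fell in 43.3% of its 200-bp bins, against 83.0% in Base medium and 87.2% in EV. Background, the typical coverage of regions with few reads, was 0.0454 per bin in full medium, 0.00630 in Base medium and 0.00602 in EV, so that full medium had 7.21 times the background of Base medium. Estimated reads were 8648828 in full medium, 5985362 in Base medium and 5041726 in EV. Each library's background was subtracted before libraries were compared. Covered 1-kb tiles are those with at least 0.298 after subtraction. Their median was 0.876 in full medium, 0.890 in Base medium and 0.877 in EV. Each median is over a library's own tiles above a shared cut, so it cannot show that the scaling is comparable. Covered tiles held 45.2% of the deposited coverage in full medium, 79.1% in Base medium and 81.8% in EV.

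Coverage is in the authors' normalised units per 200-bp bin and is quoted as deposited, before subtraction. Log2 ratios are of Base over full medium after subtraction, with a pseudocount of 0.0597, which understates the change of low windows. A gene end is a window reaching 1 kb to each side of the first or last base of a protein-coding gene. It counts as gained where the log2 ratio is at least 1 and as lost where it is at most -1, if the higher library reaches 0.119. Folds are plain ratios of deposited coverage, and their 95% intervals are exact binomial intervals that cover counting error only. Neither has background subtracted, so the higher background of full medium lowers both. A fold against a library with no overlap is a bound against 3 reads.

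Most covered regions differed little between the media. Of the 1-kb tiles, 52647 were covered in both libraries, which is 90.4% of those covered in Base medium and 87.0% of those covered in full medium. Their median log2 ratio was -0.06, the middle 50% of them lay between -0.28 and 0.21, and 97.6% differed by less than 2-fold. Of the 66103 tiles covered in either library, 2534 were gained in Base medium (3.83%) and 3668 were lost (5.55%). At genes the balance was the other way round: 626 of 20665 protein-coding genes (3.03%) had a gained end and 431 (2.09%) a lost one. These balances depend on scaling. With the libraries set to equal totals, 2533 genes gained and 146 lost, and 22908 tiles gained and 775 lost. That scaling is a change of 0.90 on the log2 scale, applied after background subtraction and before the pseudocount. The median over all gene ends was 0 there, as under every setting with subtraction, so it does not show the scaling. Without background subtraction the median log2 ratio over all gene ends was -0.62, with 441 genes gained and 1147 lost.

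**Figure D1:**
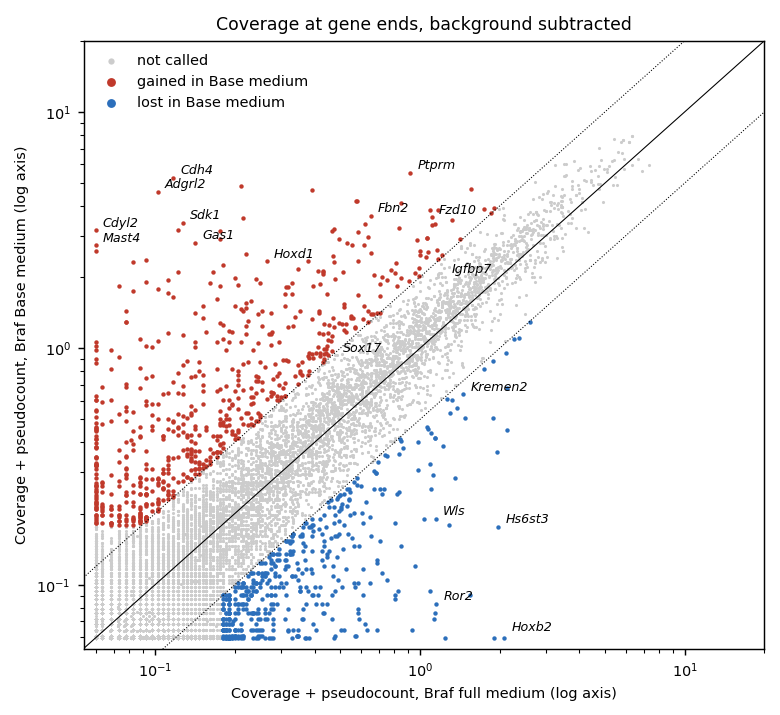
Coverage at 41330 gene ends in full medium (x axis) and Base medium (y axis), each with background subtracted and the pseudocount added, on log axes. Each point is a gene end, the solid line marks equal coverage and the dotted lines a 2-fold difference; the 636 gained ends (red) reach far above the line at Cdh4, Adgrl2 and Cdyl2, and the 467 lost ends (blue) lie below it, with Hoxb2 at the bottom edge.

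Gains were concentrated at gene starts. Losses were spread more widely, though the share of covered tiles lost was also highest at starts. Tiles within 1 kb of a RefSeq start made up 3.18% of all tiles and 7.01% of covered tiles, but 30.5% of gained tiles (773) and 10.6% of lost tiles (388). Seen from the starts, 16.7% of the covered tiles there were gained and 8.37% lost. Outside genes the shares turned round: of the covered tiles there 1.25% were gained and 5.60% lost, and such tiles made up 46.5% of all lost tiles (1707) against 15.1% of gained ones (382). Tiles inside genes, away from both ends, had 3.85% gained and 4.95% lost.

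Coverage was gained more often at the start of a gene than at its far end. Among the 16457 genes whose start is known from RefSeq, 411 starts gained (2.50%) and 241 lost (1.46%), while 68 far ends gained (0.413%) and 131 lost (0.796%). Over all 20085 RefSeq starts, counting alternative starts, 565 gained (2.81%) and 288 lost (1.43%).

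Promoters with many CpG gained more often. Counting CpG in the 300 bases around the start, 0.543% of the 5526 starts with 0 to 4 CpG gained and 1.38% lost. With 5 to 9 CpG, 2.26% of 2925 starts gained and 1.64% lost. With 10 to 14 CpG, 4.10% of 1974 gained and 2.13% lost, the highest share lost of any class. The share gained was 3.35% with 15 to 19 CpG and 3.59% with 20 to 24, so it did not climb step by step. The shares lost in these classes were 1.31% and 1.45%. In the class of 25 or more CpG, 4.49% of 5170 starts gained and 1.16% lost. Gained starts had a median of 21 CpG and lost starts a median of 12, beside 14 over all starts. MBD capture itself yields more from CpG-dense DNA once it is methylated, so these shares are of captured signal.

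**Figure D2:**
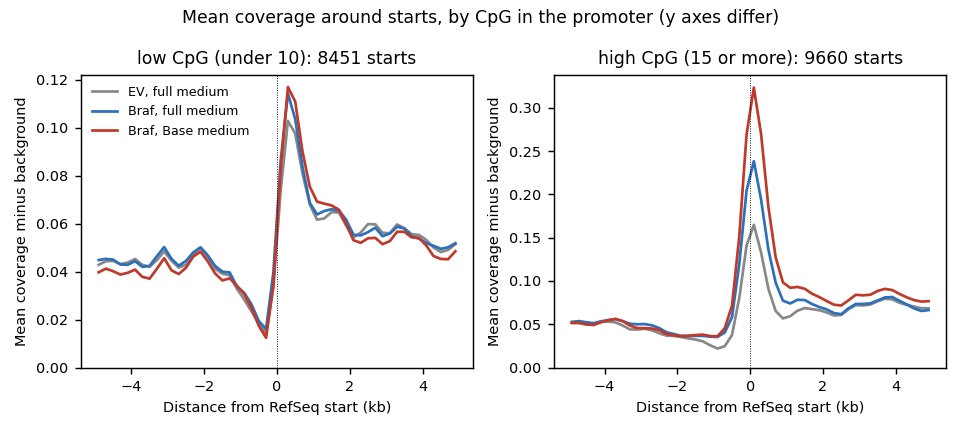
Mean background-subtracted coverage per 200-bp bin (y axes, which differ between panels) against distance from the RefSeq start in kb (x axis), for starts with fewer than 10 CpG in 300 bases (left, 8451 starts) and with 15 or more (right, 9660 starts). Lines are the 3 libraries; at CpG-dense starts the Base medium line peaks just after the start at 0.323, above full medium (0.238) and EV (0.165), while at CpG-poor starts the lines lie close together.

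The mean profile showed the same contrast. In the bin just after CpG-dense starts, mean coverage was 0.165 in EV, 0.238 in full medium and 0.323 in Base medium, and 1.9 kb upstream of them it was 0.0352, 0.0366 and 0.0363. At CpG-poor starts the values 0.5 kb downstream, near the peak, were 0.0976 in EV, 0.104 in full medium and 0.111 in Base medium.

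The largest gains were peaks of methylated DNA at gene ends that were almost empty in full medium. Cdyl2, which encodes a chromodomain protein, had a coverage of 0.0294 at its high end on chromosome 8 in full medium, 3.10 in Base medium and 0 in EV, a rise of 105-fold (95% interval 32.5 to 644). Cdh4, which encodes the adhesion protein R-cadherin, had 0.103 at its low end (chr2:179442423), 5.20 in Base medium and 0.161 in EV, 50.5-fold (26.1 to 113). The other Cdh4 end was not called, with 0.593 in full medium and 0.482 in Base medium. At the peak bin of Cdh4, coverage was 10.7 in Base medium, 0 in full medium and 0.502 in EV, and the peak was 2.2 kb wide where it exceeded the tile minimum. Base medium stood alone above the other libraries at both genes.

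Adgrl2, an adhesion receptor of the latrophilin family, rose at its start on chromosome 3 from 0.0882 to 4.53 (EV 0.0100). The 1-Mb segment around it also had a raised background in Base medium, by 0.59 on the log2 scale relative to the genome. The Adgrl2 log2 ratio was 5.48 with the genome-wide and 5.40 with the local background subtracted. Subtraction takes off little beside a coverage of 4.53, so whether the raised segment adds to this ratio was not tested. Mast4, a kinase gene, rose at its start from 0.0441 to 2.68 (EV 0.0351), and Slco3a1, an organic anion transporter gene, from 0.0441 to 2.53 (EV 0.0100). As deposited, EV was below full medium at all 3 of these ends, but at Mast4 and Slco3a1 full medium was under its own background of 0.0454. After subtraction, EV was at 0.0291 at Mast4 and 0.00402 at Slco3a1, and full medium at 0. At Adgrl2 EV was at 0.00402 and full medium at 0.0428. The synaptic vesicle gene Syt9 (0.0686 to 2.26) and Xylt1, which starts the sugar chains of proteoglycans (0.0784 to 2.32), had log2 ratios of 4.80 and 4.68. A pair of further leading gains had methylation in EV as well: Slit3, an axon guidance ligand, stood at 0.0588 in full medium, 1.78 in Base medium and 0.417 in EV, and Dmrta2, a neural developmental factor, at 0.108, 3.12 and 0.617 at its far end.

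**Figure D3:**
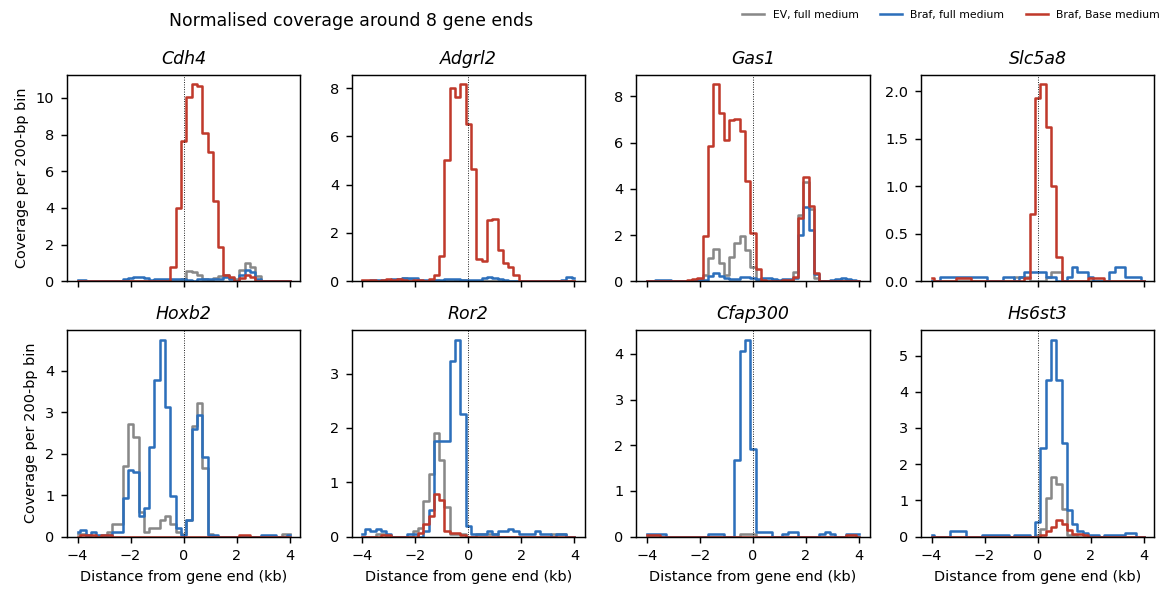
Deposited coverage per 200-bp bin (y axes, which differ between panels) against distance from a gene end in kb (x axis) at 8 loci, with 1 line per library. Base medium (red) forms a peak at Cdh4, Adgrl2, Gas1 and Slc5a8 where full medium (blue) stays near 0 (the smaller Gas1 peak further right is in all 3 libraries), and full medium forms one at Hoxb2, Ror2, Cfap300 and Hs6st3 that Base medium lacks or has at a lower height.

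Over all 636 gained ends (1.54% of 41330), median coverage was 0.127 in full medium, 0.483 in Base medium and 0.0602 in EV, and 67 of them had a log2 ratio of 3 or more. The other end of the gene rarely followed, with both ends gained in 10 genes. In 226 of the gained ends (35.5%), EV also reached the minimum, with medians of 0.279 in EV, 0.225 in full medium and 0.782 in Base medium. In the other 410, EV was low, with medians of 0.0251, 0.0980 and 0.411. Over all 20085 RefSeq starts, EV reached the minimum in 10.1%. Of the gained tiles, 43.9% were also covered in EV.

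Homeobox and other developmental transcription factors were the lists with the highest shares of gained genes. Of 120 homeobox genes outside the Hox clusters, 33 gained (27.5%) and 10 lost (8.33%), beside 3.03% and 2.09% of all genes, and the list's median log2 ratio was 0.20 against -0.00 over all genes. Irx1, an Iroquois patterning factor, rose from 0.152 to 2.05 (EV 0.331), 13.5-fold (7.70 to 25.9). Uncx, a factor of vertebral and neural development, rose from 0.0294 to 0.548 (EV 0.0301), and Hlx, a factor of gut mesenchyme, from 0.0441 to 0.411 (EV 0.0201). The homeobox losses with the largest ratios were at Tlx2, a factor of enteric neurons (0.554 to 0.0445 at its high end), Nkx3-2, a skeletal and spleen factor (0.333 to 0.00741), and Lhx4, a pituitary factor (0.167 to 0.0111). EV was at 0.0151, 0.00502 and 0 there, as low as Base medium.

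Of 100 other developmental factors, 25 gained (25%) and 5 lost (5%), with a median log2 ratio of 0.16. Over all genes 3.03% gained and 2.09% lost. Besides Dmrta2, the largest gains were at Tbx18, a T-box factor of mesenchyme (0.0784 to 0.696), and Eya4, a transcriptional coactivator methylated in human colon tumours (0.127 to 0.959). Both were near background in EV, at 0.0402 and 0.0100. Losses were led by Dmrta1, a relative of Dmrta2, which went from 1.12 at its start to 0.0222 with 0.622 in EV. Dmrt3 (0.426 to 0.122) and Ebf4 (0.186 to 0.0296) followed. The related genes Dmrta1 and Dmrta2, both on chromosome 4, thus went opposite ways.

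The Hox genes, which pattern the body axis, were mixed. Of 39, 8 gained (20.5%) and 2 lost (5.13%), beside 3.03% and 2.09% of all genes, with a median log2 ratio of 0.13. Hoxd1 rose at its start from 0.250 to 2.28, with no overlap in EV, and its peak bin had 7.41 in Base medium and 0.539 in full medium. Hoxa4 rose from 0.0735 to 0.626 (EV 0.0201) and Hoxd13, which patterns hindgut and digits, from 0.323 to 1.31 (EV 0.0251). Hoxb2 went the other way, with the largest loss of any gene end. Its high end had 2.07 in full medium, 0.949 in EV and no overlap in Base medium, at least 75.2-fold lower, and its low end went from 0.505 to 0.0111 (EV 0.813). A 3-kb run of tiles there, chr11:96352001-96355000, had 1.82 in full medium, 1.03 in EV and 0 in Base medium. Hoxc11 fell from 0.632 to 0.141, with 0 in EV.

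Genes of cell adhesion and neural wiring formed the other group with many gains. Of 86, 21 gained (24.4%) and 2 lost (2.33%), beside 3.03% and 2.09% of all genes. The list's median log2 ratio was 0.01, and most of its members were not called. After Cdh4 and Adgrl2 came the sidekick adhesion gene Sdk1, which rose at its start, beside the promoter shown above, from 0.113 to 3.34 (EV 0.0703), 29.7-fold (15.7 to 63.7). The protocadherin gene Pcdh7 fell at its start from 0.465 to 0.00741 (EV 0.141), and Cntnap1, of contacts between axons and glia, from 0.549 to 0.0482 (EV 0.326). Of 19 receptor-type tyrosine phosphatases, 3 gained and 0 lost: Ptprm, which binds itself between cells, from 0.906 to 5.48 (EV 0.0753), Ptprt from 0.157 to 1.02 (EV 0), and Ptpro from 0.436 to 1.10 (EV 0.442). Of the gene ends named here, that of Ptprm had the highest coverage in Base medium.

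**Figure D4:**
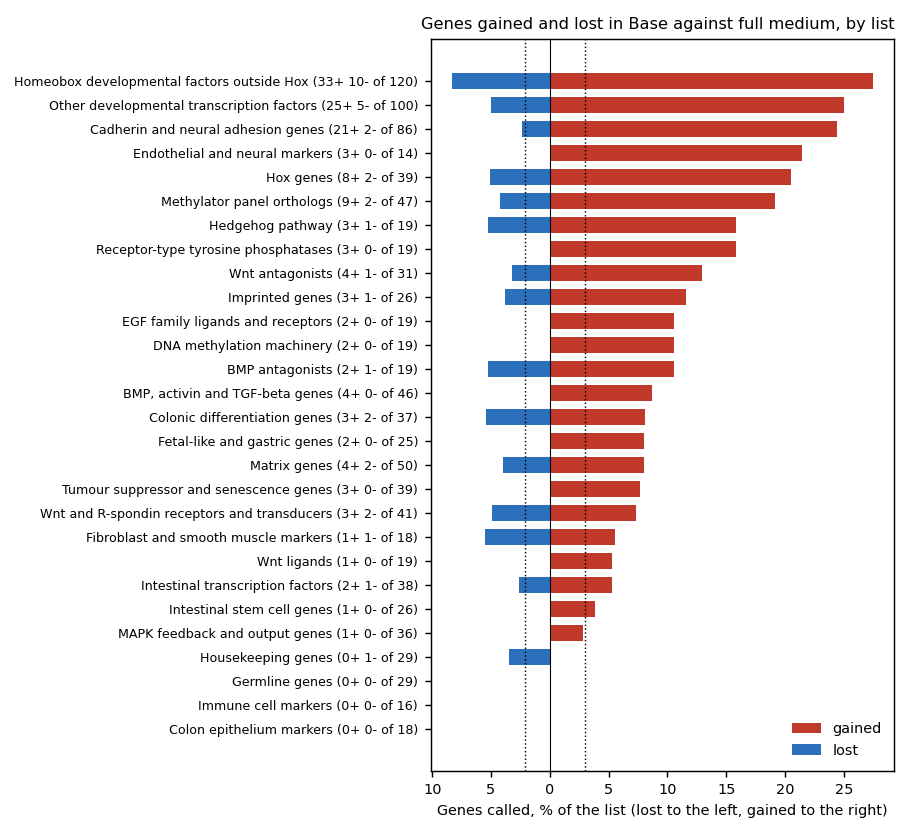
Share of each gene list that gained (red, to the right) or lost (blue, to the left) coverage in Base against full medium, in percent of the genes measured (x axis); each label gives the counts. Dotted lines mark the shares over all 20665 genes, 3.03% gained and 2.09% lost; the homeobox, other developmental and adhesion lists reach 24.4% to 27.5% gained, and none of the germline genes, immune markers or colon epithelium markers was called.

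Mouse orthologs of genes used in human CpG island methylator panels had 9 of 47 gained (19.1%) and 2 lost (4.26%). Over all genes 3.03% gained and 2.09% lost. The median log2 ratio of the list was 0.17, and Cdh4 and Eya4 are also in the lists above. Ntrk2, a neurotrophin receptor, rose at its start from 0.0588 to 0.867 with 0 in EV. Slc5a8, a butyrate transporter of colonocytes, rose at its start, beside the promoter shown above, from 0.0539 to 0.763 (EV 0.0402), 14.2-fold (5.62 to 48.0). The losses were at Igf2, a fetal growth factor (0.220 to 0.0111, EV 0.271), and the tachykinin gene Tac1 (0.220 to 0.0222, EV 0). Tumour suppressor and senescence genes had 3 of 39 gained (7.69%) and 0 lost, with a median of 0. These were the cytoskeletal gene Epb41l3 (0.191 to 0.682), the collagen cross-linker Lox (0.456 to 1.29) and the kidney factor Wt1 (0.980 to 2.14). Cdkn2a, which encodes p16 and p19, had 0.250 and 0.263 at its start and was not called. Igfbp7, a secreted senescence factor, had 1.22 and 1.95 there (log2 ratio 0.69, EV 0.713), also short of a call.

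Base medium lacks the niche factors, so the genes that make, receive and restrain those signals were read next. Among 31 Wnt antagonists, 4 gained (12.9%) and 1 lost (3.23%), beside 3.03% and 2.09% of all genes, with a median log2 ratio of 0.08. Frzb, a secreted decoy for Wnt proteins, rose at its start from 0.108 to 0.596 (EV 0.0552), and its relatives Sfrp1 from 0.510 to 1.12 (EV 0.125) and Sfrp4 from 0.0735 to 0.207 (EV 0.0100). Notum, which inactivates Wnt by removing its lipid, rose from 0.941 to 2.02 (EV 0.226). Kremen2, a co-receptor of the Dkk inhibitors, fell from 1.45 to 0.585 (EV 1.18). Sox17, an endoderm factor that restrains beta-catenin, had 0.465 and 0.882 at its low end and 0.549 and 0.767 at its high end, with log2 ratios of 0.96 and 0.54, and was not called; EV was at 0.0151 and 0.0301.

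The receiving side of the Wnt pathway had 3 of 41 genes gained (7.32%) and 2 lost (4.88%), with a median of 0. Over all genes 3.03% gained and 2.09% lost. The frizzled receptors Fzd10 (1.09 to 3.53, EV 0.0602), Fzd3 (0.157 to 0.763, EV 0) and Fzd9 (0.451 to 0.922, EV 0.0402) gained. Ror2, the receptor of Wnt5a, lost nearly all of its start peak, from 1.14 to 0.0296 (EV 0.0904), which is 0.0261 of the full-medium value (95% interval 0.00570 to 0.0759). Wls, which carries Wnt proteins to the cell surface, fell at its far end from 1.13 to 0.137 (EV 0.141). Of 19 Wnt ligands, 1 gained: Wnt5b, from 0.0980 to 0.185, where the counting interval of the fold (0.806 to 4.88) includes equality. At both of their ends the feedback or stem cell genes Lgr5, Znrf3, Axin2 and Rnf43 and the inhibitor gene Apc had at most 0.0980 in full medium and at most 0.0222 in Base medium, all under the minimum.

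For the other niche signals, 4 of 46 BMP, activin and TGF-beta genes gained (8.70%) and 0 lost. The ligand genes Bmp8b (0.0784 to 0.545), Gdf7 (0.314 to 1.83) and Bmp6 (0.0735 to 0.144) and the inhibin subunit gene Inha (0.0588 to 0.141) were those. The Inha fold of 2.39 has a counting interval of 0.829 to 8.44, which includes equality, as does that of Bmp6 (a fold of 1.97, 0.735 to 6.03). With windows of 500 bp to each side the Inha log2 ratio turned to -0.29. Of 19 BMP antagonists 2 gained, among them Fstl1 (0.0245 to 0.345), and Nbl1 lost (0.167 to 0.0148). Of 19 EGF family genes 2 gained: Lrig3, a relative of the EGF receptor inhibitor Lrig1, rose at its start from 0.0686 to 1.70 (EV 0.0151), 24.8-fold (11.0 to 70.0), and Erbb4 went from 0.0882 to 0.170 with an interval that includes equality (0.788 to 5.29). Of 36 MAPK feedback and output genes, 1 gained (2.78%, near the 3.03% of all genes) and 0 lost; it was Spry4, an inhibitor of the pathway (0.0539 to 0.237). At Braf itself the start had 0.0637 and 0.0148, under the minimum.

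Of 19 hedgehog pathway genes, 3 gained (15.8%) and 1 lost (5.26%), beside 3.03% and 2.09% of all genes. Gas1, a hedgehog co-receptor and growth-arrest gene, rose at its start from 0.127 to 2.75, with 0.668 in EV, 21.6-fold (11.8 to 44.1), as a 3-kb run of tiles at chr13:60175001-60178000. The receptor gene Ptch1 rose from 0.0392 to 0.196. Disp3 rose from 0.00980 to 0.359 (EV 0.477) in a segment of chromosome 4 where the local background ratio was raised by 1.60 on the log2 scale. Its log2 ratio was 2.79 with the genome-wide and 2.75 with the local background subtracted. Subtraction takes off little beside a coverage of 0.359, so whether the raised segment adds to this ratio was not tested. Ihh, the hedgehog ligand that colon epithelium sends to the mesenchyme, fell at its start from 1.08 to 0.270 (EV 0.0351).

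Most genes of intestinal identity were not called, as held for all genes, of which 3.03% gained and 2.09% lost. Intestinal transcription factors had 2 of 38 gained (5.26%) and 1 lost (2.63%), with a median of -0.28. Satb1, a chromatin organiser, rose at its start from 0.162 to 2.85 with 0 in EV, 17.6-fold (10.3 to 32.9), and Prox1, a factor of enteroendocrine and lymphatic cells, from 0.0490 to 0.215. Gfi1, a secretory lineage factor, fell from 0.250 to 0.0370. Cdx2, the master factor of intestinal fate, had 0.0980 at its start in full medium and no overlap in Base medium or EV, under the minimum. Of 37 colonic differentiation genes, 3 gained and 2 lost: the carbonic anhydrase Car4 (0.0392 to 0.267), the granin Chgb (0.118 to 0.296) and the tuft cell gene Dclk1 (0.152 to 0.374) rose, while the granin Chga (0.343 to 0.111) and the alkaline phosphatase Alpi (0.206 to 0.0296) fell. Among 26 stem cell genes Kit, a receptor of deep crypt secretory cells, gained (0.0735 to 0.774), and among 25 fetal-like and gastric genes the homeobox factor Barx1 (0.696 to 1.81) and the water channel Aqp5 (0.622 to 1.38) gained.

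Matrix genes had 4 of 50 gained (8%) and 2 lost (4%), beside 3.03% and 2.09% of all genes. Fbn2, a fibrillin of elastic fibres, rose from 0.637 to 3.57 (EV 0.0954), its relative Fbn1 from 0.461 to 1.18 (EV 0.266) and Col25a1 from 0.0441 to 0.156. The proteoglycan genes Acan (0.941 to 0.0667, EV 0.0251) and Hspg2 (0.407 to 0.0445, EV 0.683) fell. Of 19 genes that write, read or erase methylation, 2 gained (10.5%) and 0 lost, a count too small to set the list apart. They were Uhrf2 at its start (0.162 to 0.448) and Dnmt1, the maintenance methyltransferase, at its far end (0.157 to 0.374, EV 0.361). The Dnmt1 start stayed low, at 0.0686 in full medium and 0.0482 in Base medium.

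Germline genes, many of which are methylated in ordinary somatic cells, were not called, beside 3.03% gained and 2.09% lost over all genes. At those shares a list this short can hold no call, so this does not set germline genes apart. Of 29, 0 gained and 0 lost, with a median log2 ratio of 0.17. Dazl, a germ cell RNA-binding protein, had 3.49 at its start in full medium, 5.32 in Base medium and 3.83 in EV. Ddx4, the germline helicase, had 3.20, 3.87 and 3.32; both were chosen as examples after their values were seen. Of 26 imprinted genes, of which 1 parental copy is methylated at a control region, 3 gained and 1 lost, with a median of 0.33. The starts of Peg3 (1.86 and 2.04) and Plagl1 (2.44 and 2.82), also picked after the fact, were close in both media, whereas Rasgrf1 (0.162 to 1.23), Dlk1 (0.260 to 1.36) and Grb10 (1.3 to 3.44) gained at their starts. Of 29 housekeeping genes 0 gained and 1 lost.

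Markers of other cells were read in the same way. Of 18 fibroblast and smooth muscle markers 1 gained, Zeb2 (0.137 to 0.270, counting interval of the fold 0.969 to 4.29), and 1 lost, Tagln (0.657 to 0.248). Of 14 endothelial and neural markers 3 gained (21.4%, beside 3.03% of all genes): Elavl4 (0.132 to 0.745), Kdr (0.216 to 0.526) and Sox10 (0.289 to 0.626). With windows of 500 bp to each side the log2 ratio turned to -0.43 at Kdr and -0.094 at Sox10. No marker of 18 for colon epithelium or of 16 for immune cells was called. With 3.03% gained and 2.09% lost over all genes, lists this short can hold no call. Starts at or above the minimum in full and Base medium were 2 and 2 of 14 for epithelium, 2 and 3 of 10 for fibroblasts and smooth muscle, 0 and 0 of 10 for immune cells and 4 and 5 of 8 for endothelial and neural cells. Whether a mixture of cell types plays a part in any gain or loss was not tested.

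At single genes losses could be as complete as gains. Besides Hoxb2, no overlap remained at Slc22a21, a carnitine transporter gene, which had 1.89 in full medium and 0.0301 in EV (at least 68.4-fold lower in Base medium). Cfap300, a gene of motile cilia, had 1.22 at its start in full medium and 0.0151 in EV, and none in Base medium (at least 44.4-fold lower). Wdr31 fell at its start from 0.916 to 0.0111, with 0 in EV. In these 3 genes Base medium and EV were both near 0, and full medium was the library that differed. The gene 4930444P10Rik fell from 1.53 to 0.0370 (EV 0.0552). The glucosyltransferase gene Uggt2 (1.07 to 0.0407, EV 0.346) and Hs6st3, a heparan sulfate sulfotransferase (1.96 to 0.122, EV 0.517), neighbour each other on chromosome 14, in a segment whose background was lower in Base medium by 0.71 on the log2 scale.

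Over all 467 lost ends (1.13% of gene ends), median coverage was 0.299 in full medium, 0.0445 in Base medium and 0.0653 in EV. Only 20 had a log2 ratio of -3 or less, 36 genes were lost at both ends, and 28 ends had no overlap in Base medium. In 48.8% of lost ends (228) the higher library was under 0.239 after subtraction, within 2 times the minimum, against 24.8% of gained ends (158). EV reached the minimum in 178 of the lost ends (38.1%), beside 10.1% of all 20085 RefSeq starts. Of the lost tiles, 61.3% (2250) were covered in EV too. Over all 3668 lost tiles, median coverage after subtraction was 0.484 in full medium, 0.134 in Base medium and 0.426 in EV. At both gene ends and tiles, then, losses where EV reached the minimum stood beside losses where it did not. Base medium itself still reached the minimum in 88 lost ends (18.8%) and 597 lost tiles (16.3%). The share of EV over all covered tiles was not counted.

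A few genes moved in both directions. Gbx2, a brain patterning factor, gained at its start (0.162 to 0.619) and lost at its far end (0.245 to 0.0704). Tlx3, a factor of sensory neurons, did the same (0.260 to 0.574 and 0.549 to 0.148). Prss57 and LOC102637806, a neighbour of Gbx2 whose start window overlaps that of Gbx2, were the other 2 of 4 such genes. In both Gbx2 and Tlx3 the far end was the higher one in full medium, and the start in Base medium.

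Called tiles were mostly isolated. Gained tiles formed 2167 runs, of which 85.3% were a single tile and the longest 6 kb; lost tiles formed 3123 runs, 90.7% single and the longest 40 kb. The longest gained run covered Dmrta2 (chr4:109979001-109985000), with 0.563 in full medium, 3.22 in Base medium and 0.868 in EV. Next by summed difference were runs at Cdh4 (chr2:179442001-179444000, 0.0980 to 6.53), Gas1, Tmem132e (chr11:82387001-82390000, 0.278 to 3.82) and Sdk2 (chr11:114065001-114068000, 0.225 to 3.56). Each of these lay at a gene end or start.

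The lost runs with the largest summed difference were of another kind. The 40-kb run in Sfi1 (chr11:3152001-3192000) had 1.71 in full medium, 0.212 in Base medium and 0.154 in EV. Its ratio of full to Base medium, 8.04, was close to the ratio of the libraries' backgrounds, 7.21, and relative to its own background it stood at 37.6 times in full medium, 33.7 times in Base medium and 25.6 times in EV. The next run, also in Sfi1 (chr11:3125001-3149000), had a ratio of 6.85, and that at chr17:13550001-13554000 had 6.47. Runs at chr10:3109001-3118000 and chr15:75085001-75088000, both outside genes, had ratios of 10.6 and 3.85. Relative to its own background, the chromosome 17 run stood at 128 times in full medium and 143 times in Base medium (EV 119). The chromosome 10 run stood at 43.6 and 29.5 times (EV 21.5), and the chromosome 15 run at 112 and 210 times (EV 252). By that measure the runs on chromosomes 15 and 17 were not lower in Base medium. At the copies Sp110 and Sp140 on chromosome 1 a 20-kb run had 0.617 in full medium and 0.0674 in Base medium, at 13.6 and 10.7 times their own background. An 11-kb run at the predicted genes Gm51571 and Gm51572 (chr8:55113001-55124000) had a ratio of 23.8, at 12.7 times its own background in full medium and 3.85 times in Base medium, so not every long run lay near the background ratio. Reads of near-identical gene copies may be split or stacked by alignment, so Sfi1, Sp110, Sp140 and the predicted genes of such clusters are uncertain. The 71 lost runs of 3 kb or more held 398 of the 3668 lost tiles.

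Hairpins of microRNAs, short RNAs that repress messenger RNAs, were measured in windows of 1 kb either way from their middle. Of 919 hairpins, 8 gained (0.871%) and 4 lost (0.435%) in Base medium, below the 1.54% and 1.13% of gene ends. Mir6538 on chromosome 12 rose from 0.0784 in full medium to 1.26 in Base medium, with 0.0100 in EV. Mir1904 on chromosome 13 rose from 0.0931 to 0.667, with 0.587 in EV, and Mir8110 on chromosome 8 from 0.225 to 0.815, with 0.216 in EV. Among the losses, Mir10b, which lies in the HoxD cluster, fell from 0.416 to 0.141, with 0.743 in EV, and Mir6973b on chromosome 2 from 0.745 to 0.193, with 0.191 in EV. Host or neighbouring genes share the reads of these windows, and the hairpins named were chosen after their values were seen.

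**Figure D5:**
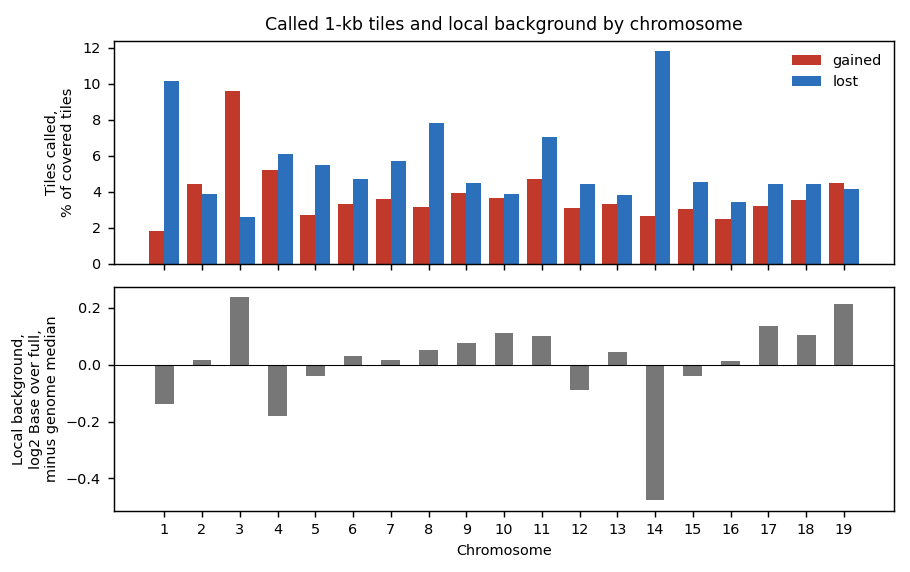
Top, tiles gained (red) and lost (blue) in Base medium in percent of covered tiles (y axis) on each chromosome (x axis). Bottom, the median local background per 1 Mb, as the log2 ratio of Base over full medium minus the genome median; chromosome 3 has the highest share gained (9.60%) and a raised background (0.24), and chromosome 14 the highest share lost (11.8%) and the lowest background (-0.48).

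Chromosomes differed in their calls, partly along with their background. On chromosome 3, 9.60% of covered tiles gained and 2.59% lost, with a local background 0.24 above the genome on the log2 scale. Chromosome 14 had 2.67% gained and 11.8% lost, with a background of -0.48. Chromosome 1 had 1.81% gained and 10.1% lost, with -0.14. On the remaining chromosomes 2.52% to 5.19% gained and 3.41% to 7.85% lost. By segment, gene ends in the 135 Mb where the local background was lower in Base medium by 0.5 or more gained in 2.70% and lost in 4.75% of 927 ends. In the 1927 Mb of flat background the shares were 1.60% and 1.08%, and in the 341 Mb where it was raised, 1.34% and 0.984%. Whether the number of chromosome copies differed between the cultures was not tested. Leaving out chromosomes 3, 4 and 14 left 502 genes gained and 352 lost, and subtracting local in place of genome-wide background gave 639 and 379.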

How the data were processed

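MBD-seq was done on 1 library per condition; per the labels' protocols, input was 100 to 200 ng, fragments averaged 200 to 400 bp and single-end reads were 50 bp long. The submitters' processing notes name Bowtie2 (no version) and mm10. The making and normalisation of the bins are not given in the sources used here. As values, the authors deposited 1 log2 value per library and 200-bp bin, in 12313737 bins (chromosomes 1 to 19). Coverage was 2 to that value minus the column minimum; 100% of bins were then whole multiples of 1 step per library (0.0370 in Base medium, 0.0490 in full medium, 0.0502 in EV; tolerance 0.001 of a step), read as overlaps, which sum to 14850571, 20914446 and 12530155. Dividing by the mean overlaps of lone reads (2.48, 2.42 and 2.49) gave estimated reads. What the authors scaled to is unknown.

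Background was the median over 20-kb windows of the mean coverage of their 1-kb tiles under 5 times the mean coverage in every library, where a window had at least 10 such tiles. The gene-end minimum is 2 times that mean coverage. Local background used 1-Mb segments. Gene ends and names came from RefSeq on GRCm38.p6, where the promoter table gives strand and start for 16457 genes; otherwise ends are named low and high. Intervals are 95% Clopper-Pearson on estimated reads without subtraction. Intervals and bounds cover counting error only. The calling was run on simulated reads with planted changes well above the calling cut, at ends above the minimum. The simulation held counting error only, so it does not test calls near the cut or differences between cultures. Python 3.11.15, numpy 2.4.6, pandas 2.3.3, scipy 1.17.1 and matplotlib 3.10.9 were used.

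The 2 libraries follow from their labels, but the comparison, its members and the 28 gene lists were chosen with earlier results of these data known; 30 listed genes matched no gene in the table. Named genes are the 10 largest gains and losses, up to 3 called members a list and direction, a set around Cdh4, Cdx2, Sfrp4, Sox17, Cdkn2a, Igfbp7, the Wnt feedback genes and Braf, and the 5 leading runs a direction. Notum, Bmp6, Gbx2, Tlx3, Prss57, LOC102637806 and the runs at Sp110 and Sp140 and at Gm51571 and Gm51572 were named after their values were seen. Some genes under this rule enter the counts but are not reported here. Alternatives changed background, scaling, pseudocount, minimum, window and tile size.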

Additional observations from a re-analysis of the deposited data

How the results depend on the processing

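The counts depend on scaling, background, pseudocount, minimum and window or tile size. In the order genes gained, genes lost, tiles gained and tiles lost, the reported counts are 626, 431, 2534 and 3668. Without background subtraction they were 441, 1147, 1799 and 5542, and with equal totals 2533, 146, 22908 and 775. A pseudocount 4 times larger gave 314, 106, 1250 and 1623, no minimum 758, 1332, 10725 and 120537, and a minimum 2 times higher 473, 221, 1303 and 1324. Tiles of 2 kb gave 1118 gained and 1316 lost. Lost genes numbered 723 with windows of 500 bp to each side, 265 with 2 kb and 270 with RefSeq starts only. The cause of these moves was not tested. Of the 431 lost genes, 146 were also lost with equal totals; of the 626 gained genes, 439 were also gained without subtraction.

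Counts stayed within 1.5 times of those reported with local background, equal median of covered windows, a pseudocount 4 times smaller and intervals that exclude equality. They also did under 2 settings chosen after seeing the data, background as the median gene end and leaving out chromosomes 3, 4 and 14. The interval setting uses reads without subtraction, so the higher background of full medium leans it towards loss. It kept all 431 lost genes and all 3668 lost tiles, beside 524 genes and 1988 tiles gained, so it could hardly remove a loss. Under every gene setting run, more genes gained than lost in the homeobox, other developmental, Hox, adhesion and methylator lists. The other lists followed, intestinal transcription factors and Wnt antagonists, did not hold to this. Intestinal transcription factors had 3 gained and 5 lost both without subtraction and with no minimum, and 1 and 2 with windows of 2 kb. Wnt antagonists had 1 gained and 1 lost with the larger pseudocount. Homeobox gains ranged from 18 to 54 and losses from 2 to 13. Among named genes, windows of 500 bp turned the log2 ratio at Inha to -0.29, at Kdr to -0.43 and at Sox10 to -0.094. Of 95 named ends called, 85 were still called with equal totals and 65 with the larger pseudocount. No paired analysis was possible because each group holds 1 library.

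Depth limits low windows: near the minimum, a doubling can lie within counting error.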
